A study of Bos taurus and other sequences with 9 samples.

Results

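The red-cell miRNAs hsa-miR-451a, hsa-miR-144-3p, hsa-miR-144-5p and hsa-miR-486-5p were followed through small RNA sequencing of extracellular vesicle (EV) preparations from culture media. The set was chosen by name, and all 4 miRNAs were present among the 425 miRNAs of the deposited table. EV RNA was sequenced from 9 media samples, of which 8 held fetal bovine serum (FBS) in DMEM/F12 basal medium with antibiotics. Regular FBS (FBS-1 and FBS-2), FBS depleted of EVs by long ultracentrifugation (UC-dFBS-1 and UC-dFBS-2) and FBS depleted by centrifugal ultrafiltration (UF-dFBS-1 and UF-dFBS-2) were each made from 1 serum of Sigma-Aldrich (number 1) and 1 serum of Gibco (number 2). SBI-dFBS-1 and SBI-dFBS-2 held 2 lots of a commercial exosome-depleted FBS of System Biosciences, and StemPRO was a defined serum-free medium of Gibco with 1 sample.

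The miR-144 and miR-451a hairpins lie side by side and are cut from 1 primary transcript that is switched on as red cells mature. The miR-451a hairpin is too short for Dicer and is cut by Argonaute 2 instead, whereas miR-144 is processed by Dicer into a 5p and a 3p arm. miR-486 lies within ANK1, the gene of the ankyrin that ties the red-cell membrane to its skeleton, and it is also made in skeletal and heart muscle. These miRNAs are abundant in mature red cells, so that serum receives them through haemolysis and through vesicles shed by red cells. In the bovine RefSeq annotation (ARS-UCD2.0), MIR451 and MIR144 were each other's nearest gene and MIR486 lay within ANK1.

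Reads were named after human miRNAs by a perfect match to the mature sequence or by alignment to a known human miRNA locus. The alignment to the genome allowed 1 mismatch over the length of a miRNA. Bovine RNA of the serum was thus counted where it is alike or nearly alike in sequence. The total miRNA count ranged from 26275 to 203755 in FBS, SBI-dFBS and UC-dFBS. It was 4204 and 937 in UF-dFBS and 1438 in StemPRO, so that members are read there from few counts. Levels are given on the spike-in scale, that is as counts divided by a sample's factor from external spike-in RNAs, and as the share of all miRNA counts of a sample. Intervals are exact or Wilson 95% intervals, and these and the floor of 3 counts used for undetected miRNAs cover counting error only. Each medium's 2 samples came from different sera or lots, so that the SD and the tests hold the difference between sera as well as the handling. A lower level can stand for fewer vesicles, for less RNA in each vesicle or for less RNA outside vesicles, which the preparations may also hold, and these cannot be told apart here.

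In regular FBS, hsa-miR-486-5p was the most abundant of the set, followed by hsa-miR-451a, hsa-miR-144-5p and hsa-miR-144-3p. Their mean spike-in normalized levels were 182 ± 78.2, 52.2 ± 27.8, 23.7 ± 15.3 and 8.28 ± 6.39 (SD, n = 2). They ranked 20, 37, 65 and 102 among the 425 miRNAs by the mean level in FBS. The most abundant miRNA of FBS, the liver miRNA hsa-miR-122-5p, had a mean level of 12110 ± 10314. The order of the 4 levels was the same in FBS-1 and FBS-2, and hsa-miR-486-5p was the one member whose mean differed from the next by more than the sum of both SDs. Together the set made up 0.584% (0.551 to 0.618) of the miRNA counts of FBS-1 and 1.71% (1.64 to 1.79) of those of FBS-2.

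The level of hsa-miR-451a reached 71.8 in FBS-1 and 32.6 in FBS-2, 32.7 in SBI-dFBS-1 and 45.5 in SBI-dFBS-2, 3.82 in UC-dFBS-1 and 1.61 in UC-dFBS-2, 0.109 in UF-dFBS-1 and 0.0833 in UF-dFBS-2, and 0.00926 in StemPRO. These levels rested on 348, 243, 296, 172, 25, 11, 6, 2 and 1 counts. FBS and SBI-dFBS overlapped, every UC-dFBS value lay below both, and the UF-dFBS values lay below those of UC-dFBS. The StemPRO value was a single count.

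The level of hsa-miR-486-5p amounted to 126 in FBS-1 and 237 in FBS-2, 132 in SBI-dFBS-1 and 60.1 in SBI-dFBS-2, 10.6 in UC-dFBS-1 and 17.6 in UC-dFBS-2, 0.489 in UF-dFBS-1 and 0.833 in UF-dFBS-2, and 0.268 in StemPRO. It was the only member with at least 20 counts in every sample, from 1766 counts in FBS-2 down to 20 in UF-dFBS-2. SBI-dFBS overlapped FBS, and the values of UC-dFBS, UF-dFBS and StemPRO lay successively lower. The counting intervals of UF-dFBS-1 (0.322 to 0.711) and StemPRO (0.180 to 0.385) overlapped, however.

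For hsa-miR-144-5p the level reached 34.5 in FBS-1 and 12.9 in FBS-2, 7.52 in SBI-dFBS-1 and 19.6 in SBI-dFBS-2, and 0.612 in UC-dFBS-1, from 4 counts. It had 0 counts in UC-dFBS-2, in UF-dFBS-2 and in StemPRO and 2 counts in UF-dFBS-1. The other arm, hsa-miR-144-3p, was at 12.8 in FBS-1, 3.76 in FBS-2, 3.65 in SBI-dFBS-1, 5.56 in SBI-dFBS-2, 0.459 in UC-dFBS-1 and 0.147 in UC-dFBS-2. The last 2 of these values stood for 3 counts and 1 count, hsa-miR-144-3p had 0 counts in both UF-dFBS samples, and it had 2 counts in StemPRO. Both arms were thus well above the floor of 3 counts in FBS and SBI-dFBS and at or near it everywhere else.

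**Figure D1:**
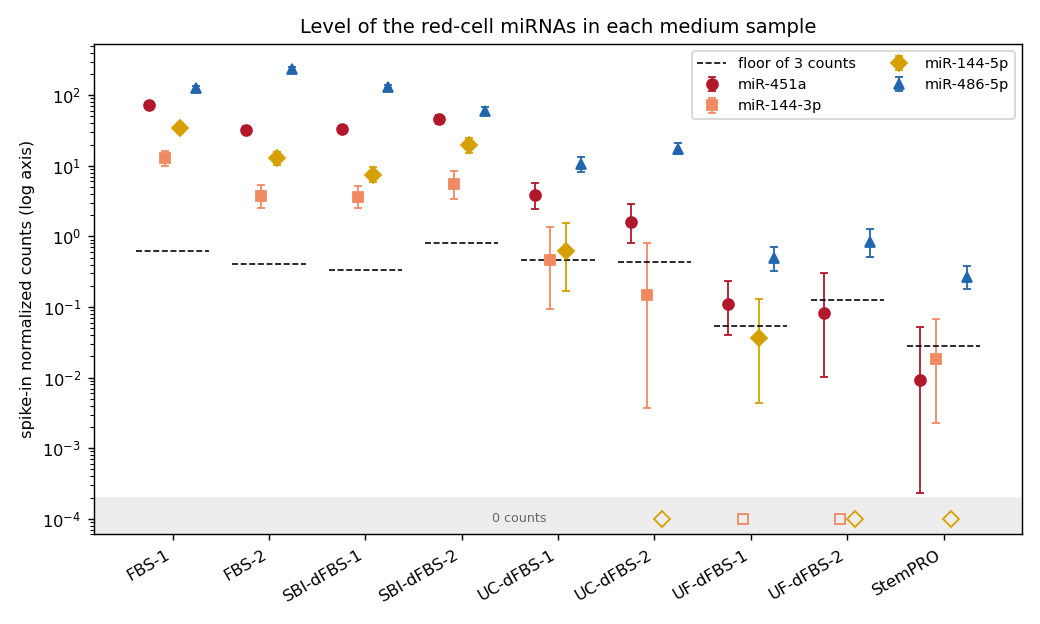
Spike-in normalized counts of the 4 red-cell miRNAs in each of the 9 samples on a log axis, with exact 95% counting intervals as bars, the floor of 3 counts of each sample as a dashed line and open symbols in the grey band for 0 counts. FBS and SBI-dFBS overlapped for each miRNA, UC-dFBS lay lower, and in UF-dFBS and StemPRO only miR-486-5p stayed above the floor in every sample.

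The first comparison asked how much of the set the commercial exosome-depleted serum still held. The summed level of the 4 miRNAs was 175.9 in SBI-dFBS-1 and 130.8 in SBI-dFBS-2 against 245.5 in FBS-1 and 286.1 in FBS-2. SBI-dFBS thus held 57.7% ± 13.5 (SD propagated from 2 samples each) of the FBS mean, where it held 43.9% ± 31.3 of the total miRNA level. Single members ranged from 52.9% of the FBS mean for hsa-miR-486-5p to 74.9% for hsa-miR-451a, with SDs of 36.1 and 43.4 percentage points.

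None of the 4 members passed the test between SBI-dFBS and FBS on the spike-in scale. In edgeR's quasi-likelihood fit over the 8 serum-based samples, with Benjamini-Hochberg adjustment over the 163 miRNAs tested, 45.4% of all tested miRNAs were called in either direction in this comparison. The fitted log2 change was -0.42 for hsa-miR-451a (SE 0.59, adjusted p = 0.54), -0.82 for hsa-miR-144-5p (SE 0.67, adjusted p = 0.29), -0.85 for hsa-miR-144-3p (SE 0.83, adjusted p = 0.37) and -0.92 for hsa-miR-486-5p (SE 0.63, adjusted p = 0.21). All of these lay above the median of -1.70 over all tested miRNAs. The SEs are wide enough that losses of several-fold or none were both within reach, and 0 members had an unadjusted p under 0.05 or were called by DESeq2.

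As a share of miRNA counts, hsa-miR-451a made up 0.171% of FBS-1 and 0.195% of FBS-2, and 0.341% of SBI-dFBS-1 and 0.281% of SBI-dFBS-2, so that both SBI-dFBS values lay above both FBS values. The log2 change of its share was 0.76 (SE 0.63, edgeR adjusted p = 0.48), while 9.82% of all miRNAs were called. None of the other 3 members was called on this scale, with log2 changes from 0.02 to 0.44. No member had an unadjusted p under 0.05 there, and DESeq2 called 0 members.

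Markers of other sources showed other values in SBI-dFBS. All 4 white cell and platelet miRNAs (hsa-miR-223-3p, hsa-miR-142-3p, hsa-miR-142-5p and hsa-miR-150-5p) fell on the spike-in scale, with a median log2 change of -4.07, and their summed level was 16.4% of the FBS mean, where 45.4% of all miRNAs tested were called. The 4 vessel wall miRNAs all had a fitted change below 0 and 3 were called lower, and the sum of the 4 was 8.03% of the FBS mean. The sum of 3 liver miRNAs, none of them called, was 76.1% of the FBS mean. Of the 4 muscle miRNAs 2 were tested and 1 was called, higher (hsa-miR-133a-3p), and their sum was 432% of the FBS mean, at 53.7 in SBI-dFBS-1 and 4.24 in SBI-dFBS-2. The 4-member set, at 57.7%, lay above the vessel wall, white cell and platelet miRNAs and below the liver and muscle miRNAs. A list of other red-cell miRNAs, described below, was at 42.7%. The difference between these lists was not tested.

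The next comparison asked what ultracentrifugation left of the set. All 4 members were called lower in UC-dFBS on the spike-in scale, as were 90.8% of the 163 miRNAs tested. The fitted log2 change was -3.69 for hsa-miR-486-5p (SE 0.70, edgeR adjusted p = 4.66e-06), -4.26 for hsa-miR-451a (SE 0.69, adjusted p = 9.07e-08), -4.73 for hsa-miR-144-3p (SE 1.06, adjusted p = 9.10e-05) and -6.25 for hsa-miR-144-5p (SE 0.92, adjusted p = 5.01e-09). The median over all tested miRNAs was -2.70. Ordered from the strongest loss, the members took places 1 (hsa-miR-144-5p), 4 (hsa-miR-144-3p), 8 (hsa-miR-451a) and 19 (hsa-miR-486-5p) of the 163. Both miR-144 arms passed the filter of 10 counts only through FBS and SBI-dFBS, the media where they were high. In UC-dFBS they had 4 and 0 counts (hsa-miR-144-5p) and 3 and 1 (hsa-miR-144-3p), so their places give no support of their own. All 4 calls held when any single sample was left out.

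The same loss was seen within each serum. UC-dFBS-1 held 5.32% (3.40 to 7.99) of the hsa-miR-451a level of FBS-1, and UC-dFBS-2 held 4.95% (2.44 to 9.01) of that of FBS-2. For hsa-miR-486-5p the remaining part was 8.35% (6.42 to 10.7) in the Sigma serum and 7.42% (6.12 to 8.94) in the Gibco serum. The intervals of the 2 sera overlapped for both miRNAs. For hsa-miR-144-5p the level was 56.3-fold lower (21.6 to 209) in UC-dFBS-1. In UC-dFBS-2, with 0 counts, it was 29.3-fold lower at the floor of 3 counts, with a lower 95% limit of 23.4. hsa-miR-144-3p remained at 3.59% (0.720 to 11.0) and 3.90% (0.0954 to 23.6), from 3 counts and 1 count.

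Over the whole set, 6.29% (5.09 to 7.72) remained in the Sigma serum and 6.76% (5.63 to 8.06) in the Gibco serum, whereas the total miRNA level remained at 18.5% (18.3 to 18.6) and 23.1% (22.8 to 23.4). The set therefore took a smaller share of the miRNA that remained in UC-dFBS. Its share fell from 0.584% in FBS-1 to 0.199% (0.164 to 0.242) in UC-dFBS-1 and from 1.71% in FBS-2 to 0.502% (0.424 to 0.595) in UC-dFBS-2. A lower share was not particular to the set, as 126 of the 163 miRNAs tested had a fitted share change below 0. The mean share of hsa-miR-122-5p went from 37.5% in FBS to 57.1% in UC-dFBS. Against the FBS mean, the summed level in UC-dFBS was 6.55% for the set and 9.26% for the white cell and platelet miRNAs. It was 15.1% for the vessel wall, 27.8% for the liver and 31.6% for the muscle miRNAs.

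On the share scale, hsa-miR-144-5p was the single miRNA of 163 called between UC-dFBS and FBS (0.613% called). Its log2 change was -3.99 (SE 0.91, edgeR adjusted p = 0.034), and it had passed the filter only through FBS and SBI-dFBS samples. Its call was lost when any sample other than the SBI-dFBS ones was left out, with adjusted p-values from 0.055 to 0.52. The share of hsa-miR-451a was 0.0492% in UC-dFBS-1 and 0.0419% in UC-dFBS-2, below both FBS samples, and its log2 change was -1.99 (SE 0.67, adjusted p = 0.30). The values were -2.34 (SE 0.82, adjusted p = 0.30) for hsa-miR-144-3p and -1.55 (SE 0.79, adjusted p = 0.63) for hsa-miR-486-5p. The median of all tested miRNAs was -0.43, and 3 members had an unadjusted p under 0.05, among 12 of all 163 miRNAs.

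FBS, UC-dFBS and UF-dFBS were made from the same 2 sera, so the serum could be taken as a block over these 6 samples. With this block the shares of 3 members were called lower in UC-dFBS against FBS. The log2 change was -1.97 for hsa-miR-451a (edgeR adjusted p = 0.0013), -1.40 for hsa-miR-486-5p (adjusted p = 0.0021) and -3.98 for hsa-miR-144-5p (adjusted p = 4.26e-05), and -2.38 for hsa-miR-144-3p (adjusted p = 0.096). In this paired fit 9 of the 158 miRNAs tested were called. Both miR-144 arms passed its filter only through the FBS samples. DESeq2 without the block, given the same 163 miRNAs as the main fit, called 4 of them. Of these 2 were members, hsa-miR-451a (adjusted p = 0.0030) and hsa-miR-144-5p.

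**Figure D2:**
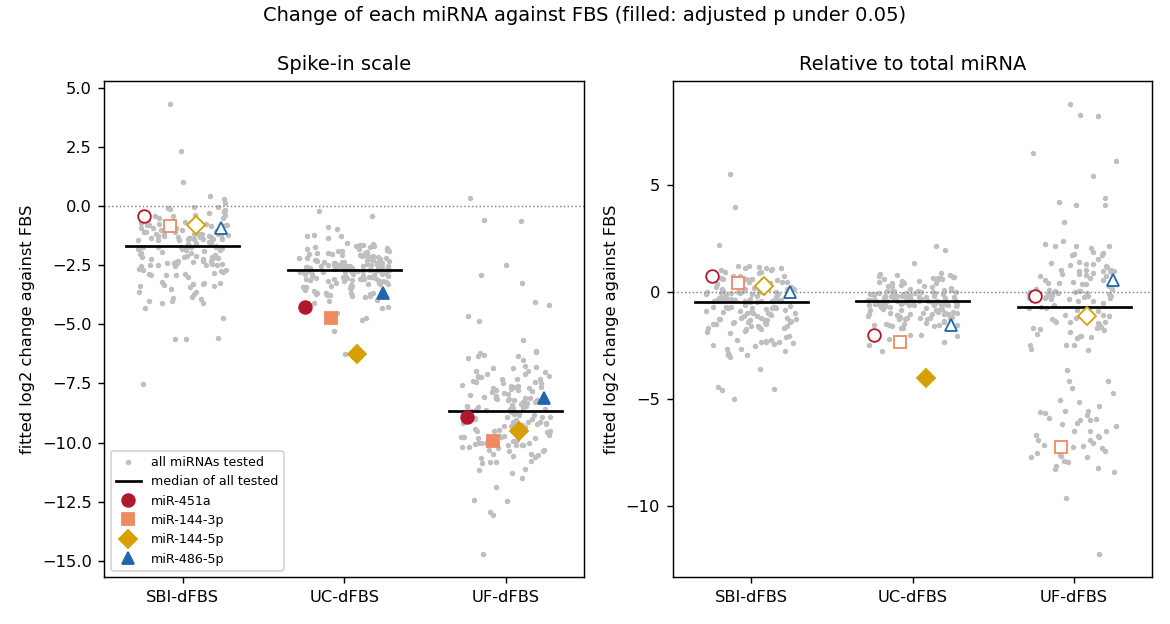
Fitted log2 change against FBS of every miRNA tested (grey points, 163 per medium), with the median of all tested as a black bar and the 4 red-cell miRNAs as coloured symbols, filled where the edgeR adjusted p was under 0.05; the left panel is on the spike-in scale and the right panel relative to total miRNA. In UC-dFBS all 4 lay below the median on both scales, whereas in SBI-dFBS all 4 lay above it; fitted values of miRNAs with 0 counts in a medium, such as miR-144-3p in UF-dFBS, depend on the prior count.

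The 2 kinds of depleted serum that still held many counts were also set against each other, a comparison added after the values had been seen. On the spike-in scale all 4 members were lower in UC-dFBS than in SBI-dFBS, while 11.7% of the 163 miRNAs were called lower. The log2 difference was -2.77 for hsa-miR-486-5p (SE 0.67, edgeR adjusted p = 0.0011), -3.84 for hsa-miR-451a (SE 0.68, adjusted p = 1.22e-06), -3.88 for hsa-miR-144-3p (SE 1.06, adjusted p = 0.0049) and -5.44 for hsa-miR-144-5p (SE 0.91, adjusted p = 5.22e-07), against a median of -0.93 over all tested miRNAs. hsa-miR-144-5p, hsa-miR-144-3p and hsa-miR-451a took places 2, 3 and 4 from the strongest difference. Both miR-144 arms had passed the filter only through FBS and SBI-dFBS, so their places give no support of their own. The calls of hsa-miR-486-5p and hsa-miR-144-3p did not hold in each fit with a sample left out. That of hsa-miR-486-5p was lost without SBI-dFBS-1 (adjusted p = 0.076) or UC-dFBS-1 (0.10), and that of hsa-miR-144-3p without SBI-dFBS-2 (0.063), UC-dFBS-1 (0.068) or UC-dFBS-2 (0.29).

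As shares of miRNA counts, 3 members were called lower in UC-dFBS than in SBI-dFBS, where 2.45% of all miRNAs were called lower. They were hsa-miR-451a (log2 difference -2.76, SE 0.69, edgeR adjusted p = 0.018), hsa-miR-144-5p (-4.31, SE 0.91, adjusted p = 0.0077) and hsa-miR-144-3p (-2.78, SE 0.82, adjusted p = 0.040). As above, both miR-144 arms had passed the filter only through FBS and SBI-dFBS. The fourth miRNA called lower was hsa-miR-133a-3p, a muscle miRNA. hsa-miR-486-5p had a difference of -1.57 (SE 0.79, adjusted p = 0.30). Without UC-dFBS-2 none of the 3 calls was left, and without FBS-1, SBI-dFBS-1 or UC-dFBS-1 a single one was left.

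Ultrafiltration left little of the set. All 4 members were called lower on the spike-in scale, as were 98.2% of the miRNAs tested, and the summed level of the set was 0.634 in UF-dFBS-1 and 0.916 in UF-dFBS-2. The 2 sera kept 0.258% (0.179 to 0.361) and 0.320% (0.200 to 0.486) of the summed level of their own FBS, and 0.181% and 0.234% of the total miRNA level. For hsa-miR-486-5p the log2 change was -8.11 (SE 0.86, edgeR adjusted p = 2.61e-19), from 27 and 20 counts, and for hsa-miR-451a it was -8.92 (SE 0.86, adjusted p = 2.35e-22), from 6 and 2 counts. The median over all tested miRNAs was -8.67, so that these members lay on both sides of it.

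The miR-144 arms were at or under the floor after ultrafiltration. hsa-miR-144-3p had 0 counts. At the floor of 3 counts per library, it was 236-fold lower than in FBS-1 in the Sigma serum, with a lower 95% limit of 186. In the Gibco serum it was 30.1-fold lower than in FBS-2, with a lower limit of 22.9. hsa-miR-144-5p was 952-fold lower (259 to 7927) in UF-dFBS-1, from 2 counts. In UF-dFBS-2 it was 103-fold lower at the floor, with a lower limit of 82.3. The bounds differ because the libraries differ in spike-in factor and in the counts of their FBS.

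As a share of miRNA counts, no member was called in UF-dFBS against FBS, where 11.0% of all miRNAs were called. The share of hsa-miR-486-5p was 0.642% (0.442 to 0.933) in UF-dFBS-1 and 2.13% (1.39 to 3.27) in UF-dFBS-2, against 0.300% and 1.42% in FBS-1 and FBS-2, and its log2 change was 0.60 (SE 0.82, edgeR adjusted p = 0.67). The share of hsa-miR-451a was 0.143% (0.0654 to 0.311) and 0.213% (0.0586 to 0.775), with a log2 change of -0.16 (SE 0.79, adjusted p = 0.93). The floors of 0.0714% and 0.320% in these libraries lie above the shares of hsa-miR-144-3p in FBS, 0.0304% and 0.0225%, so that a lower share of this arm was not detectable at this depth. No member had an unadjusted p under 0.05, and DESeq2 called 0 members. The comparisons with SBI-dFBS, UC-dFBS and UF-dFBS share the FBS samples and are not independent of each other.

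**Figure D3:**
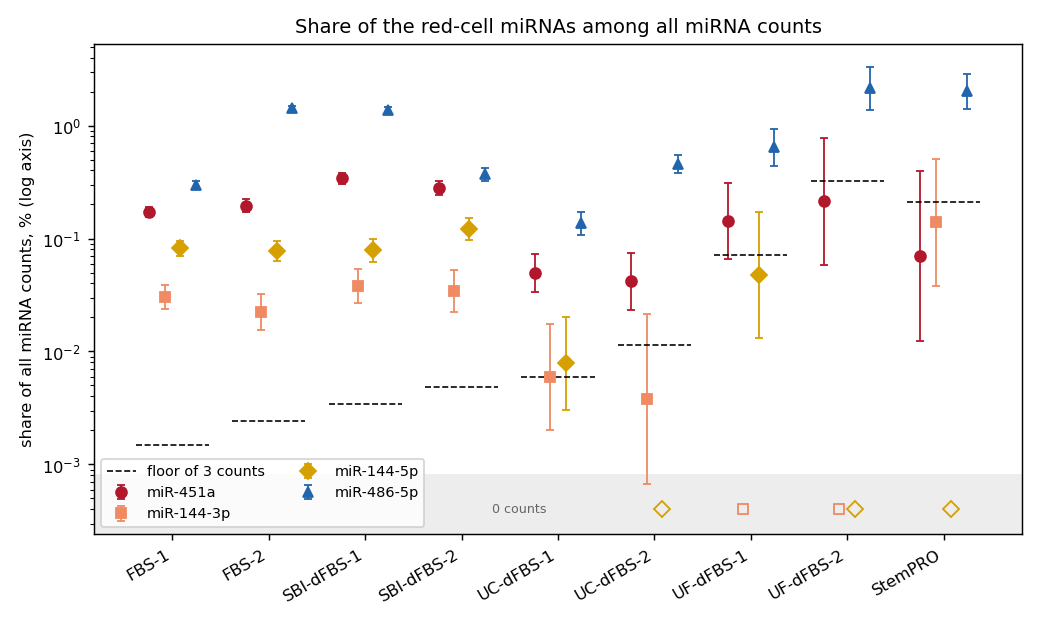
Share of each red-cell miRNA among all miRNA counts of a sample, in percent on a log axis, with Wilson 95% intervals as bars, the floor of 3 counts as a dashed line and open symbols in the grey band for 0 counts. The shares of miR-451a and both miR-144 arms lay lower in UC-dFBS than in FBS and SBI-dFBS, and in UF-dFBS and StemPRO the floor rose to 0.0714% and more.

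The serum-free StemPRO medium held 29 counts of hsa-miR-486-5p, 2 of hsa-miR-144-3p, 1 of hsa-miR-451a and 0 of hsa-miR-144-5p. The 29 counts made hsa-miR-486-5p the 12th most abundant of the 104 miRNAs detected there, with a share of 2.02% (1.41 to 2.88). The summed level of the set was 0.111% of the FBS mean, against 0.0453% for the total miRNA level. With 1 sample this difference has no replicate check.

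The make-up of the set differed between the sera of the suppliers. Between the FBS samples, the Gibco serum held 0.454 times (0.384 to 0.536) the hsa-miR-451a level of the Sigma serum, 0.374 times (0.288 to 0.483) that of hsa-miR-144-5p and 0.293 times (0.181 to 0.466) that of hsa-miR-144-3p. It held 1.88 times (1.71 to 2.06) the level of hsa-miR-486-5p, while the total miRNA level was 0.397 times that of the Sigma serum. The same directions were found in the UC-dFBS samples, at 0.422 times (0.187 to 0.888) for hsa-miR-451a and 1.67 times (1.23 to 2.27) for hsa-miR-486-5p. In UF-dFBS the intervals included no difference, at 0.766 times (0.0757 to 4.29) and 1.70 times (0.906 to 3.15).

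Of the members, hsa-miR-451a and hsa-miR-486-5p had enough counts for the test of Gibco against Sigma serum, over FBS, UC-dFBS and UF-dFBS with the medium as a term. On the spike-in scale hsa-miR-451a was lower in the Gibco serum, with a log2 difference of -1.12 (SE 0.34, edgeR adjusted p = 0.0066), and hsa-miR-486-5p was higher, with 0.82 (SE 0.28, adjusted p = 0.014). Of the 105 miRNAs tested, 35.2% were called lower and 1.90% higher, and hsa-miR-486-5p was 1 of the 2 called higher, besides hsa-miR-423-5p. The median difference over all tested miRNAs was -0.62. Both calls were lost with DESeq2 (adjusted p = 0.11 for each), without a filter on low counts (0.052 and 0.11) and when either sample of FBS or of UC-dFBS was left out (0.57 to 0.84).

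As a share of miRNA counts, hsa-miR-486-5p was higher in the Gibco serum by a log2 difference of 1.96 (SE 0.31, edgeR adjusted p = 5.72e-08), where 21.0% of the miRNAs were called in either direction and the median was 0.54. This call was kept with DESeq2 but was lost without FBS-1 (adjusted p = 0.59), FBS-2 (0.40) or UC-dFBS-1 (0.15). The share of hsa-miR-451a differed by 0.10 (SE 0.42, adjusted p = 0.86). Each supplier stands for 1 serum, so that a supplier and a lot cannot be told apart.

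Within a sample, the counts of hsa-miR-486-5p and hsa-miR-451a can be set against each other without any normalization. Their ratio came to 1.76 (1.54 to 2.01) in FBS-1 and 7.27 (6.35 to 8.34) in FBS-2, 4.03 (3.55 to 4.60) in SBI-dFBS-1 and 1.32 (1.08 to 1.62) in SBI-dFBS-2. It was 2.76 (1.72 to 4.55) in UC-dFBS-1 and 10.9 (5.88 to 22.4) in UC-dFBS-2, 4.50 (1.82 to 13.3) in UF-dFBS-1 and 10 (2.43 to 88.2) in UF-dFBS-2. In each of the 3 media made from both sera, the ratio was higher in the Gibco sample than in the Sigma sample. The intervals did not overlap in FBS and UC-dFBS and overlapped in UF-dFBS. The ratio in StemPRO was 29.0 (4.81 to 1184), from 29 counts and 1 count.

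The 2 SBI-dFBS lots also differed on the spike-in scale, not in the same direction for all of these miRNAs. The level of hsa-miR-486-5p in lot 2 was 0.455 times (0.393 to 0.525) that in lot 1, whereas hsa-miR-451a was at 1.39 times (1.15 to 1.68), hsa-miR-144-3p at 1.52 times (0.838 to 2.71) and hsa-miR-144-5p at 2.61 times (1.85 to 3.68). The total miRNA level of lot 2 was 1.69 times that of lot 1. On the spike-in scale hsa-miR-486-5p thus differed in the opposite direction to hsa-miR-451a and hsa-miR-144-5p both between the suppliers and between the lots, while the lot interval of hsa-miR-144-3p included no difference. By share of miRNA counts the direction was not opposite for hsa-miR-451a, which was 0.341% in lot 1 and 0.281% in lot 2, where hsa-miR-486-5p was 1.38% and 0.370%. These are ratios of single samples with counting intervals only. Of the summed level of the 4 muscle miRNAs, 53.7 in lot 1 and 4.24 in lot 2, hsa-miR-133a-3p made 43.0 and 1.06, whereas in FBS the sum was 8.05 in the Sigma and 5.37 in the Gibco serum. All 4 (hsa-miR-1, hsa-miR-133a-3p, hsa-miR-133b and hsa-miR-206) were detected in lot 1, and hsa-miR-133b was at 0 in lot 2. The part of muscle RNA in the level of hsa-miR-486-5p was not tested.

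The miRNAs of the shared transcript were also set against each other. The ratio of hsa-miR-451a to hsa-miR-144-3p counts was 5.61 (4.27 to 7.48) in FBS-1, 8.68 (5.86 to 13.3) in FBS-2, 8.97 (6.25 to 13.3) in SBI-dFBS-1, 8.19 (5.19 to 13.6) in SBI-dFBS-2, 8.33 (2.54 to 43.1) in UC-dFBS-1 and 11.0 (1.60 to 473) in UC-dFBS-2. All of these intervals overlapped. The ratio of hsa-miR-451a to hsa-miR-144-5p was 2.08 (1.73 to 2.52), 2.53 (1.99 to 3.24) and 2.32 (1.76 to 3.10) in FBS-1, FBS-2 and SBI-dFBS-2, and higher in SBI-dFBS-1, at 4.35 (3.33 to 5.75). After ultracentrifugation it was 6.25 (2.16 to 24.7) in the first sample, and the second had 11 counts of hsa-miR-451a and 0 of hsa-miR-144-5p. Whether these ratios vary less between samples than that of hsa-miR-486-5p to hsa-miR-451a was not tested. The 5p arm of miR-144 exceeded its 3p arm in FBS and SBI-dFBS, at 2.06 to 3.52 times its counts. In UC-dFBS-1 the arms had 4 and 3 counts, a ratio of 1.33 (0.226 to 9.10), and in UC-dFBS-2 they had 0 and 1, so that a change in the balance of the arms was not detectable at this depth.

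The ratio of hsa-miR-451a to hsa-miR-23a-3p, a miRNA whose serum level depends little on red cells, is in common use as a sign of haemolysis in PCR assays. The count ratio came to 1.62 (1.36 to 1.93) in FBS-1 and 0.603 (0.512 to 0.709) in FBS-2, and in the SBI-dFBS lots it was 1.27 (1.07 to 1.51) and 3.44 (2.50 to 4.81). It was 0.472 (0.281 to 0.773) in UC-dFBS-1 and 0.124 (0.0596 to 0.232) in UC-dFBS-2, below the FBS sample of the same serum in both pairs, with intervals that did not overlap. hsa-miR-23a-3p itself remained at 18.3% (13.3 to 24.8) and 24.1% (19.0 to 30.4) of the FBS level in these samples, close to the total miRNA level. The sequencing ratio is not on the scale of the PCR assay, and no threshold was applied to it.

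**Figure D4:**
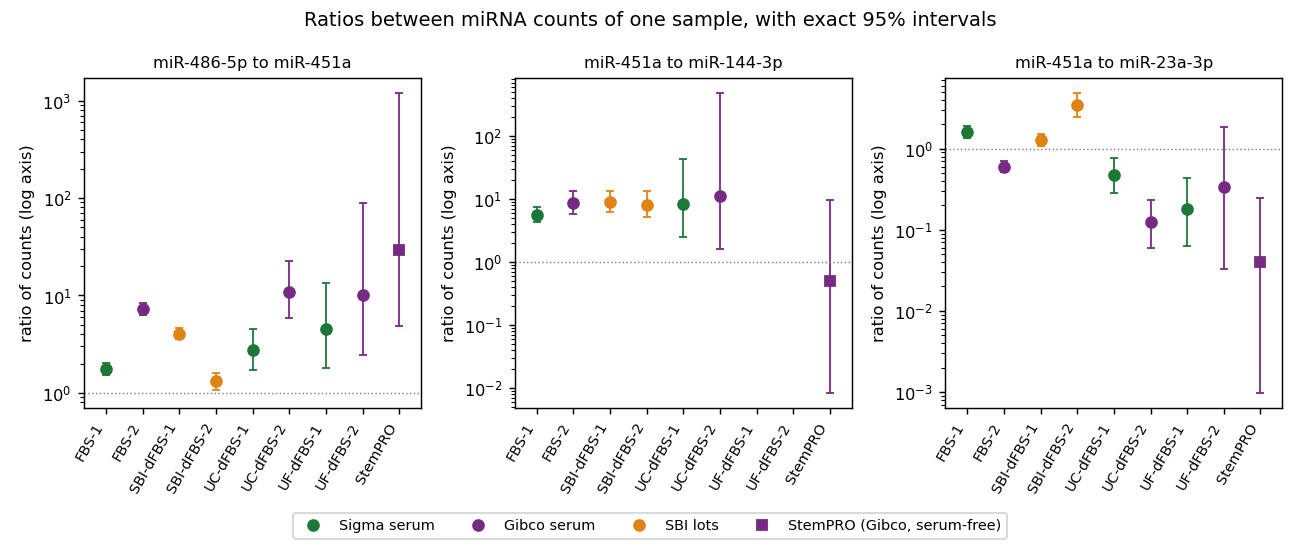
Ratios between the counts of 2 miRNAs in the same sample on log axes, with exact 95% intervals as bars and colours for the origin of the serum; a sample with 0 counts of the second miRNA has no point. The ratio of miR-486-5p to miR-451a was higher in the Gibco than in the Sigma sample of FBS (7.27 against 1.76) and UC-dFBS (10.9 against 2.76), the ratio of miR-451a to miR-144-3p stayed between 5.61 and 11.0 in FBS, SBI-dFBS and UC-dFBS, and that of miR-451a to miR-23a-3p was lowest in UC-dFBS-2 among these samples.

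Other miRNAs known from red cells were followed as a list of 13, of which 12 were in the table and 9 had enough counts to be tested. None of the 9 was called in SBI-dFBS against FBS on the spike-in scale, with a median log2 change of -1.12, where 45.4% of all miRNAs tested were called. All 9 fell in UC-dFBS, with a median of -3.15, and in UF-dFBS, with a median of -9.57, which is near the 90.8% and 98.2% called among all miRNAs. On the share scale 0 of the 9 were called in UC-dFBS by edgeR, with a median of -0.95. Against SBI-dFBS, 4 of the 9 (hsa-miR-16-5p, hsa-miR-92a-3p, hsa-miR-25-3p and hsa-miR-93-5p) were called lower in UC-dFBS on the spike-in scale, where 11.7% of all miRNAs were called lower. By share, 0 of the 9 were called in that comparison, where 2.45% of all miRNAs were called lower. hsa-miR-16-5p, the most abundant of the list, had a log2 change of -3.78 (SE 0.83, adjusted p = 6.78e-05) in UC-dFBS and -1.39 (SE 0.76, adjusted p = 0.11) in SBI-dFBS. Of the 4 further miRNAs encoded at the same loci, hsa-miR-4732-3p was the one in the table, and its total over all samples was 1 count, in StemPRO.

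For each member, the miRNAs with the most similar shares over the FBS, SBI-dFBS and UC-dFBS samples (n = 6) were sought among 25 candidates with at least 50 counts in each. hsa-miR-486-5p was most like hsa-miR-25-3p (Pearson's r = 0.987), then hsa-miR-432-5p (0.907) and hsa-miR-16-5p (0.804). hsa-miR-451a was most like hsa-miR-16-5p (0.863), then hsa-miR-432-5p (0.708) and hsa-miR-486-5p (0.595). hsa-miR-16-5p was also first for hsa-miR-144-3p (0.851) and hsa-miR-144-5p (0.796). hsa-miR-451a and both miR-144 arms had fewer than 50 counts in UC-dFBS and were not candidates themselves. Over the same samples hsa-miR-451a had a higher r with hsa-miR-144-3p (0.982) and hsa-miR-144-5p (0.934) than with any candidate. The 2 arms had an r of 0.956 with each other, and these values rest on few counts in UC-dFBS. These values describe samples that share sera between FBS and UC-dFBS and a common total within each sample, and the candidates were abundant miRNAs only. By Spearman's rho hsa-miR-432-5p tied with hsa-miR-25-3p for the first place of hsa-miR-486-5p (0.943 each). It also tied with hsa-miR-16-5p for that of hsa-miR-451a (0.657 each). For hsa-miR-144-3p hsa-miR-16-5p stayed first at a lower value (0.543). The first place of hsa-miR-144-5p changed to hsa-miR-142-3p (0.429), with hsa-miR-16-5p at 0.371.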

How the data were processed

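EV RNA was isolated from 9 media, and small RNA libraries with unique molecular identifiers (UMIs) were sequenced. Per the study's methods, the authors trimmed reads with cutadapt 1.11, merged copies by their UMI, and aligned reads with Bowtie2 2.2.2 to spike-ins, to mature human miRBase sequences without mismatch and to the GRCh37 build, from which reads at known miRNA loci were added to the miRNA counts. The deposited counts are UMI-corrected reads per miRNA (425) and per locus of other small ncRNAs (1361). The second deposited table holds a signal on a spike-in scale, for which the authors fitted spike-in reads against their known concentrations and divided counts by the slope. The ratio of both tables was tested and was constant within each sample to 2.16e-06%, and this factor served as library size. It ranged from 3.78 to 9.04 in FBS, SBI-dFBS and UC-dFBS and was 55.2, 24.0 and 108 in UF-dFBS-1, UF-dFBS-2 and StemPRO. Reads of the spike-ins were not analysed here.

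Counts were tested with edgeR 4.0.16 (R 4.3.3) by the quasi-likelihood F-test without TMM, with library sizes set to the spike-in factors (spike-in scale) or to total miRNA counts (share scale). The medium was fitted over 8 samples on the 163 miRNAs that reached 10 counts in 2 or more samples, and StemPRO was left out. The supplier was fitted over 6 samples with the medium as a term, on the 105 miRNAs that reached 10 counts in 3 or more. Benjamini-Hochberg adjustment ran over all miRNAs tested, with a threshold of 0.05. The SEs given with edgeR log2 changes are approximate. Each is the absolute log2 change divided by the square root of the F statistic of its test. Alternatives were DESeq2 1.42.0, no filter, other library sizes, fewer samples, each sample left out, and the serum as a block. The labels and methods tie FBS, UC-dFBS and UF-dFBS of the same number to 1 serum, and deviations of the same-numbered samples from their group means correlated across 163 miRNAs with r = 0.502 (FBS and UC-dFBS), 0.176 (FBS and UF-dFBS) and 0.0234 (UC-dFBS and UF-dFBS). The SBI-dFBS numbers name lots of their own. P-values measure the spread between these samples only, and the fits moderated the spread of each miRNA towards that of all miRNAs tested. With 2 samples in each medium, very small p-values rest largely on this shared estimate and not on the samples of 1 miRNA.

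The members, the marker lists and the rule for named miRNAs (the members, hsa-miR-23a-3p and hsa-miR-150-5p, the lists, the 3 miRNAs most like each member and the most abundant miRNA of FBS) were chosen with earlier results of these data known. The comparison of UC-dFBS with SBI-dFBS was added after the values were seen. Bovine gene neighbours came from the RefSeq table of ARS-UCD2.0, whose build differs from that of the files, so that no coordinates are given.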

Additional observations from a re-analysis of the deposited data

Results flagged for a closer look

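hsa-miR-486-5p had 29 counts in StemPRO, a serum-free medium with 1 sample that entered no test, which is above the floor of 3 counts. This stood for a spike-in normalized level of 0.268 (0.180 to 0.385), against 0.489 and 0.833 in UF-dFBS-1 and UF-dFBS-2. In the same sample hsa-miR-16-5p, another miRNA abundant in red cells, had 218 counts and hsa-miR-451a had 1 count. The rest of the red-cell list had 13 counts (hsa-miR-92a-3p) or fewer, and 4 of these miRNAs had 0. Of the white cell and platelet miRNAs, hsa-miR-142-3p had 33 counts, hsa-miR-223-3p 31, hsa-miR-142-5p 8 and hsa-miR-150-5p 7. Of the vessel wall miRNAs, hsa-miR-126-3p had 68, hsa-miR-126-5p 7, hsa-miR-143-3p 1 and hsa-miR-145-5p 0. Of the 4 muscle miRNAs hsa-miR-1 had 21 while hsa-miR-133a-3p, hsa-miR-133b and hsa-miR-206 had 0. The source of these reads was not tested.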

How the results depend on the processing

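Of 453 refits of the members' log2 changes, 385 kept direction and call, 45 lost the call, 5 gained one and 18 changed sign. Leaving out 1 sample turned these uncalled changes: SBI-dFBS against FBS on the spike-in scale ran from -0.88 to 0.26 (hsa-miR-451a), -1.49 to 0.28 (hsa-miR-144-3p) and -1.65 to 0.057 (hsa-miR-144-5p), positive without FBS-1. Its shares ran from -1.21 to 1.54 (hsa-miR-486-5p, negative without FBS-1 or SBI-dFBS-1) and -0.0208 to 0.60 (hsa-miR-144-5p, negative without SBI-dFBS-2). In UF-dFBS the share change of hsa-miR-486-5p ran from -0.42 to 2.11 (negative without FBS-1 or UF-dFBS-2) and that of hsa-miR-451a from -0.36 to 0.22 (positive without UF-dFBS-1). Between sera that of hsa-miR-451a ran from -0.0092 to 0.29 (negative without FBS-1 or FBS-2), and was -0.39 with TMM and -0.50 with DESeq2's own size factors. Scaled to all small ncRNA counts, the shares of SBI-dFBS against FBS gave -2.35, -2.47, -2.84 and -3.31 (hsa-miR-451a, hsa-miR-144-3p, hsa-miR-144-5p, hsa-miR-486-5p), and hsa-miR-486-5p in UF-dFBS gave -3.70. None of the changes with these signs was called. With hsa-miR-150-5p in place of hsa-miR-23a-3p, the mean log2 ratio of hsa-miR-451a was 1.94 in FBS and 0.82 in UC-dFBS, against -0.018 and -2.01. UC-dFBS thus lay below FBS with either reference. In SBI-dFBS the ratio was 6.87 against 1.06, with 1 and 2 counts of hsa-miR-150-5p. In UF-dFBS it was 3.01 against -1.87, but hsa-miR-150-5p had 0 counts there, so that the 3.01 rests on the 0.5 added to each count.

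Members called: UC-dFBS against FBS by share, 1, changed to 3 with the serum as replicate block, 2 (DESeq2), 0 (only the 4 samples, TMM or all small ncRNA counts) and 0 to 1 with a sample left out. UF-dFBS by share, 0, changed to 2 (all small ncRNA counts). UC-dFBS against SBI-dFBS changed from 4 to 2 to 4 with a sample left out, and by share from 3 to 0 (all small ncRNA counts) and 0 to 3. Gibco against Sigma changed from 2 to 0 (DESeq2), 1 (no filter, where hsa-miR-144-5p was called in place of the other members) and 0 to 2 with a sample left out, and by share from 1 to 0 to 1. The block changed no other call of the members.

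All miRNAs called, spike-in scale: SBI-dFBS 74, 8 to 78 with a sample left out. UC-dFBS 148, 56 to 151. UF-dFBS 160, 131 to 160, and 277 of 419 without a filter. UC-dFBS against SBI-dFBS 20, 5 to 27, and 12 (DESeq2). Suppliers 39, 0 to 59, 14 (DESeq2) and 24 (no filter). By share: SBI-dFBS 16, 1 to 20, 10 (TMM), 10 (DESeq2's own factors) and 2 (all small ncRNA counts). UC-dFBS 1, 0 to 1, 9 (block), 4 (DESeq2), 2 (its own factors) and 0 (only the 4 samples, TMM, all small ncRNA counts). UF-dFBS 18, 7 to 20, 33 (block) and 99 (all small ncRNA counts). UC-dFBS against SBI-dFBS 11, 2 to 12, and 0 (all small ncRNA counts). Suppliers 22, 0 to 42, 14 (DESeq2), 13 (TMM) and 6 (its own factors).

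The reduction of the summed members against the FBS mean was 42.3% in SBI-dFBS (33.8 to 50.8 with a sample left out), 93.5% in UC-dFBS (92.7 to 94.2), 99.7% in UF-dFBS (99.7 to 99.8) and 99.9% in StemPRO (99.9 to 99.9). By share it was -14.9% (an increase), 69.5%, -38.4% and -93.7%, and by raw counts 98.3% in UF-dFBS and 98.1% in StemPRO. Where the scalings differ, the cause was not tested. Depth limits the miR-144 arms in UC-dFBS, and all members but hsa-miR-486-5p in UF-dFBS and StemPRO.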
